A study of Homo sapiens and Mus musculus with 18 samples.

Results

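The genes described here are those of the ATF4 stress response, together with GDF15, in 2 human pancreatic cancer cell lines in which keratin 17 (K17, gene KRT17) was removed or added. They were chosen as a list of 39 gene symbols of that pathway, not by a cutoff on their values. The list was set with earlier results of these data known. Of its symbols, 38 were found among the 34505 gene rows of each human file. SESN2 is not analysed here. The 12 libraries used, of 18 in the series, fall into 4 groups of 3. In L3.6, a human pancreatic adenosquamous carcinoma line, cells with a CRISPR-Cas9 knockout of K17 were set against K17 wild-type cells. In PANC-1, a human pancreatic ductal adenocarcinoma line, cells over-expressing K17 were set against cells carrying the empty vector. All 4 groups were grown in DMEM with fetal bovine serum and antibiotics, and no stress treatment is named for any of them. The labels name no guide, clone or vector, and they do not say whether the replicates of a group came from separate cultures, so a p-value here sets a difference against the spread of these libraries only, and that spread may be technical. Total RNA was sequenced, and levels are given as CPM, a gene's share of its library's counts on a common scale, with library sizes adjusted by TMM, a factor that evens out differences in composition between libraries. Fold changes are log2 values of knockout over wild type in L3.6 and of K17 over empty vector in PANC-1, so a gene that follows K17 falls in the first and rises in the second.

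The integrated stress response starts when one of several kinases phosphorylates the initiation factor eIF2 under amino acid shortage, protein folding stress in the endoplasmic reticulum (ER), heme shortage or double-stranded RNA. General translation then drops while the mRNA of the transcription factor ATF4 is translated more, so that ATF4 protein can rise without a change of its mRNA. ATF4 binds a composite DNA element with partners of the C/EBP family and raises genes for amino acid synthesis, amino acid uptake and tRNA charging. GDF15 is a secreted stress cytokine of the TGF-beta superfamily that acts on the brainstem receptor GFRAL. It is known as a target of ATF4 and DDIT3 and also of p53, and its blood level is often high in pancreatic cancer.

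The DNA element that ATF4 and C/EBP proteins share is commonly written TGATGNAA, and it was searched on both strands of the RefSeq promoter windows of assembly GRCh38.p14, each with 250 bases before and 50 after a transcription start. It was present in 1270 of all 35116 windows (3.62%). Of the members, 33 of 38 genes had 53 windows in that collection, and 11 windows (20.8%), one in each of 11 genes, held it. These genes were ATF3, CEBPG, JDP2, CHAC1, ASNS, AARS1, GARS1, SLC1A4, SLC1A5, SLC3A2 and SLC7A1. The windows below belong to the secreted factor GDF15 and to 3 targets of different kinds (a tRNA ligase, an enzyme and a transcription factor). The element is in capitals. ASNS has 2 windows in that collection and JDP2 has 3, and for each the one that holds the element is shown. The windows shown of AARS1, ASNS and JDP2 hold it, AARS1 in the reverse orientation, and that of GDF15 has no such match. They lie at chr19:18385908-18386207 on the plus strand (GDF15), chr16:70289457-70289756 on the minus strand (AARS1), chr7:97872359-97872658 on the minus strand (ASNS) and chr14:75427772-75428071 on the plus strand (JDP2). A match of letters is not evidence of binding, and the missing match says only that these letters are not in that window.
GDF15: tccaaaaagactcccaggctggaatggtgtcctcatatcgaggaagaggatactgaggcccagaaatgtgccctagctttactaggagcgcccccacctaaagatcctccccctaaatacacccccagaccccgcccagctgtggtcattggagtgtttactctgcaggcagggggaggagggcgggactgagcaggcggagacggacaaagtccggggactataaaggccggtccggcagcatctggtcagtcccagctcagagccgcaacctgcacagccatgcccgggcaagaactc
AARS1: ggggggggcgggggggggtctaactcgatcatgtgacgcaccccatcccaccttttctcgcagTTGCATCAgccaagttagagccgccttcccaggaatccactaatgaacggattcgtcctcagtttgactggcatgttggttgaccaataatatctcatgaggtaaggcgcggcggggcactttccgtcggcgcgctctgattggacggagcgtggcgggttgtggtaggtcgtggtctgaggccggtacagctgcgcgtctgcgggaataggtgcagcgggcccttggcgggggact
ASNS: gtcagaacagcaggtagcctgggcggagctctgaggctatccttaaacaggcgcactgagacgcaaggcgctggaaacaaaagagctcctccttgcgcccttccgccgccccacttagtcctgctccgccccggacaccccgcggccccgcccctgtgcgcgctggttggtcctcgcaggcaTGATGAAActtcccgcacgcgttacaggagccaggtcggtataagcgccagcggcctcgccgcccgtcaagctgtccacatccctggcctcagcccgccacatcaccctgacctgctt
JDP2: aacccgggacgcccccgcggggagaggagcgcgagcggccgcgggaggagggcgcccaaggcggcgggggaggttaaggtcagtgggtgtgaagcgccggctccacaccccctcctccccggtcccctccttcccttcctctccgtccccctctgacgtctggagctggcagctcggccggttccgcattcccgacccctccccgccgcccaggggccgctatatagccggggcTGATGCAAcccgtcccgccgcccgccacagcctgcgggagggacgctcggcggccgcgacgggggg

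The libraries held 9485257 to 15476629 counts in L3.6 and 59671178 to 70789559 in PANC-1. KRT17, the targeted gene, had 15.6, 14.7 and 13.5 CPM in the L3.6 knockout libraries, against 105, 121 and 120 CPM in wild type. In PANC-1 it had 8597, 9884 and 9228 counts with K17, against 2, 0 and 0 with the empty vector. The second empty vector replicate was unlike the other 5 PANC-1 libraries. It took 18.8% of its counts from genes of the mitochondrial DNA, against 9.88% to 10.8% in the others, and lay outside their range in 76.5% of the 16295 genes tested. In L3.6, wild-type replicate 1 lay between the knockout libraries and the other wild-type libraries on the first principal component (7.4, against -40.6 to -18.6 in knockout and 40.1 and 41.3 in the other wild-type libraries). A single row, AC010970.1, took 4.34% to 6.96% of the counts in knockout and 6.05% to 14.1% in wild type. Epithelial markers summed to 3692 to 4020 CPM in L3.6 knockout and 3149 to 3524 CPM in wild type, and to 1025 to 1076 CPM in PANC-1 with K17 and 939 to 1759 CPM with the empty vector. Of the 6 epithelial markers, KRT19 rose in the knockout, and CLDN4 and KRT8 rose with K17 once empty vector replicate 2 was left out. The call of KRT19 ended without knockout replicate 2 or 3 or wild-type replicate 2 or 3 (edgeR adjusted p = 0.0651 to 0.112), and that of KRT8 without empty vector replicate 1 (0.077). Of the 6 fibroblast markers, 1 was at 0 in both L3.6 groups, and their sum was 36.9 to 41.9 CPM in knockout and 31.7 to 40.8 CPM in wild type. It was 8.60 to 10.4 CPM in PANC-1 with K17 and 18.7 to 29.3 CPM with the empty vector. COL3A1 was lower with K17 both with and without empty vector replicate 2, and THY1 passed as lower only without that replicate. The 5 endothelial markers summed to 3.79 to 4.60 CPM in L3.6 knockout and 9.65 to 14.0 CPM in wild type, and PECAM1 was lower in the knockout. Of 6 immune markers, 2 or 3 were at 0 in each group, and their sum was 1.70 to 6.11 CPM in knockout and 3.55 to 4.46 CPM in wild type, and 35.2 to 42.3 CPM with K17 and 35.6 to 51.0 CPM with the empty vector. Of 5 acinar and islet markers, 3 or 4 were at 0 in each group. The part of these markers in the results was not tested, and a lower level in a culture cannot be told apart from fewer cells that express a gene.

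In L3.6, loss of K17 went with lower GDF15 mRNA and with higher mRNA of 11 other members. Of the 35 members with enough counts to be tested, 11 were higher in the knockout and 1, GDF15, was lower at an adjusted p under 0.05 in edgeR's quasi-likelihood test with Benjamini-Hochberg adjustment over all 13891 genes. Of all genes tested, 9.61% were called, 6.1% as higher and 3.51% as lower. With upper-quartile scaling the split over all genes was 706 higher and 639 lower, against 847 and 488 with TMM, and that of the members was 10 and 1. The median log2 change of the 35 members was 0.22, against -0.01 over all genes tested. The members that rose were enzymes of serine and one-carbon metabolism, asparagine synthesis and transsulfuration, amino acid transporters, 1 tRNA ligase and 1 secreted glycoprotein, while none of the transcription factors passed.

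**Figure D1:**
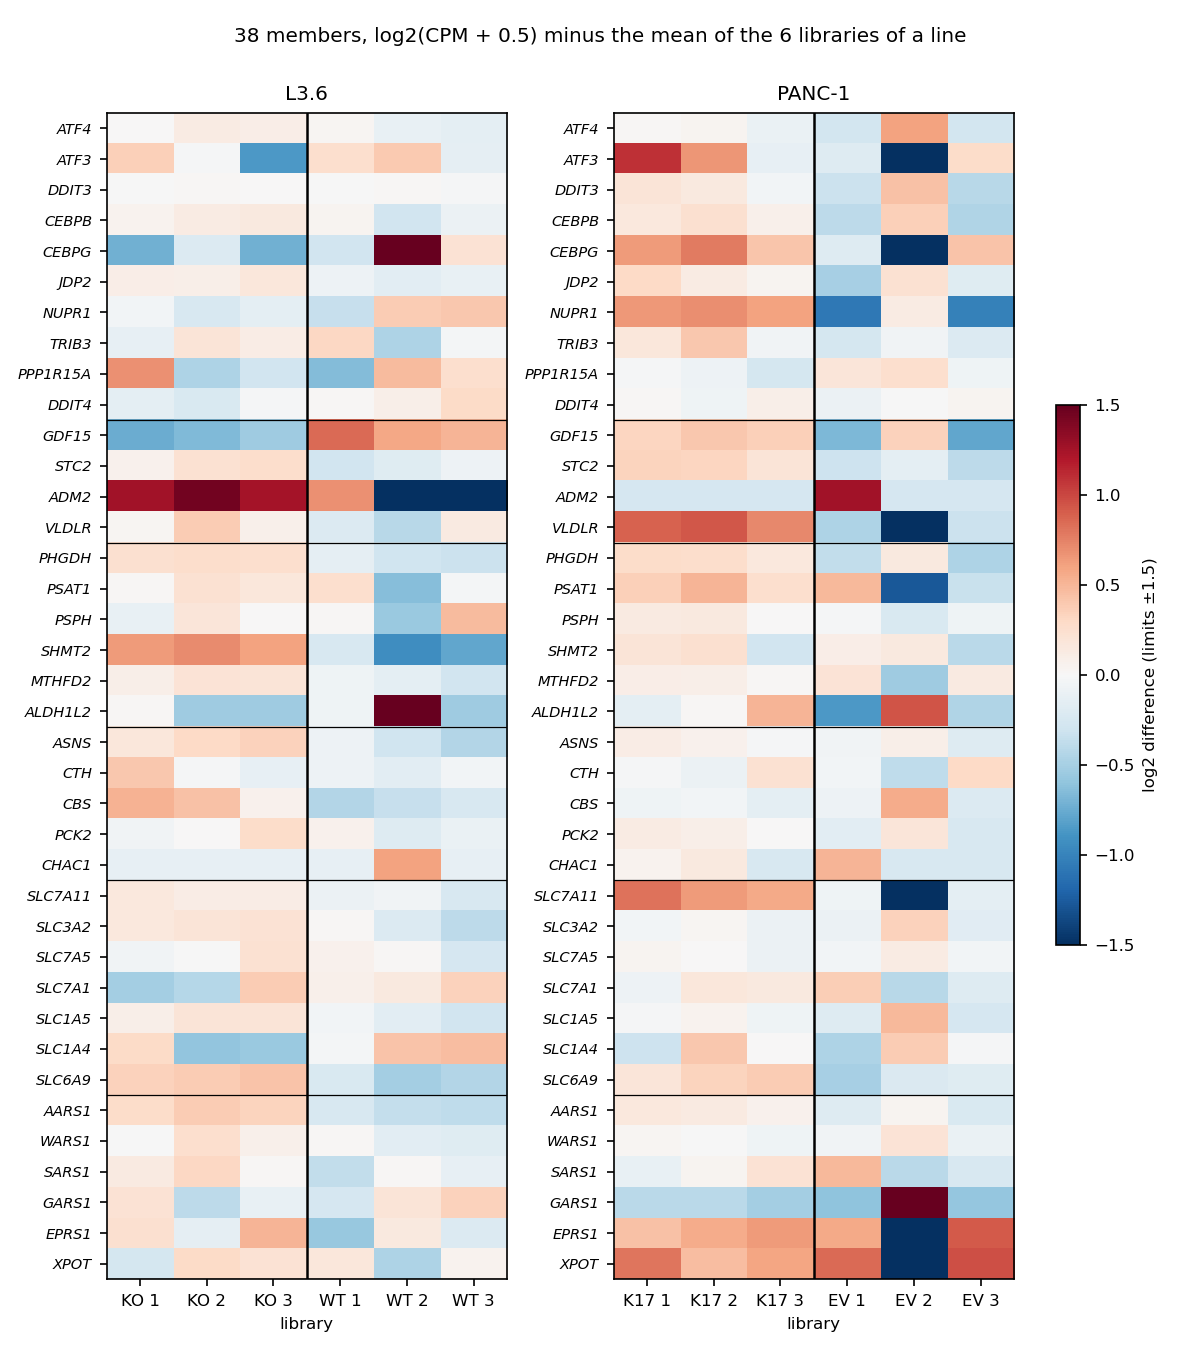
Level of each member in each of the 12 libraries, as log2(CPM + 0.5) minus the mean of the 6 libraries of its line (red above, blue below, colours limited to ±1.5), with the 38 members in rows grouped by role and libraries in columns. GDF15 is low in the 3 knockout libraries and high in the 3 K17 libraries, with empty vector replicate 2 at the level of the K17 libraries. That replicate differs from the other empty vector columns in many rows.

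GDF15 (chr19:18374731-18389176 in GENCODE 29 on GRCh38) had 7.19, 7.62 and 8.36 CPM in the knockout libraries, against 22.5, 18.6 and 17.8 CPM in wild type. Every knockout library lay below every wild-type library. The means were 7.72 ± 0.593 CPM in knockout and 19.7 ± 2.54 CPM in wild type (SD, n = 3 each), and the log2 change was -1.35 ± 0.150 (SE) with an edgeR adjusted p of 0.00138. Leaving out each library in turn left it between -1.42 and -1.23, and each time it passed. Of the alternatives tried, it missed the threshold only in 1 fit of the 4 human groups together (edgeR adjusted p = 0.0635). The shared estimate of the spread in that fit takes in empty vector replicate 2, whose part in the lost call was not tested.

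No transcription factor of the pathway passed in L3.6. ATF4 (chr22:39519695-39522685) had 443, 482 and 476 CPM in knockout, against 450, 411 and 398 CPM in wild type. The groups overlapped only through wild-type replicate 1, and the log2 change of 0.15 ± 0.0612 did not pass (edgeR adjusted p = 0.15). Without that library it was 0.22 with an edgeR adjusted p of 0.0278. DDIT3, which encodes the factor CHOP and promotes cell death under prolonged stress, had 10.2, 10.4 and 10.3 CPM in knockout, against 10.3, 10.4 and 10.2 CPM in wild type (edgeR log2 change 0.01 ± 0.135, adjusted p = 0.982). Its groups coincided, and its sign turned with upper-quartile scaling, to -0.045. DDIT3 overlaps the end of MARS1 on the other strand, and since the strand setting of the counts is not given, reads of the shared stretch cannot be told apart. NUPR1, a small stress-induced chromatin protein, had 5.8, 4.96 and 5.34 CPM in knockout, against 4.58, 7.91 and 8.04 CPM in wild type, with wild-type replicate 1 below the knockout libraries. CEBPB, a C/EBP partner of ATF4, had 62.7, 65.6 and 67.0 CPM in knockout, against 62.3, 49.5 and 56.7 CPM in wild type. JDP2, an AP-1 family repressor, had 27.0, 26.8 and 28.4 CPM in knockout, against 23.9, 22.5 and 23.3 CPM in wild type. Knockout libraries of both genes lay above every wild-type library, but neither passed (edgeR adjusted p = 0.174 for CEBPB and 0.144 for JDP2). TRIB3, a pseudokinase that feeds back on ATF4, had 1.24, 1.65 and 1.55 CPM in knockout, against 1.85, 0.867 and 1.35 CPM in wild type, and these values overlapped.

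Enzymes that make serine, glycine and one-carbon units included the member with the highest fold change among those that passed. SHMT2, the mitochondrial enzyme that turns serine into glycine and a one-carbon unit, had 85.3, 90.1 and 83.5 CPM in knockout, against 46.2, 28.4 and 31.8 CPM in wild type. Wild-type replicate 1 was the highest wild-type library but was still far below the knockout libraries, and the log2 change was 1.27 ± 0.165 (edgeR adjusted p = 0.00375). PHGDH, the first enzyme of serine synthesis from glucose, had 311, 317 and 315 CPM in knockout, against 240, 215 and 210 CPM in wild type. The knockout libraries lay within a few CPM of each other and above all wild-type libraries (edgeR log2 change 0.50 ± 0.0596, adjusted p = 0.00177). MTHFD2, the mitochondrial folate enzyme downstream of SHMT2, had 239, 260 and 257 CPM in knockout, against 215, 203 and 184 CPM in wild type. The groups did not overlap, and the log2 change was 0.33 ± 0.0662 (edgeR adjusted p = 0.0192). The other steps of the pathway were PSAT1, with 8.12 to 9.50 CPM in knockout and 4.99 to 9.68 CPM in wild type, and PSPH, with 41.4 to 51.1 CPM in knockout and 30.4 to 62.5 CPM in wild type. Knockout values of PSAT1 and PSPH lay within the wild-type range, and PSPH has a pseudogene copy that may share reads. SHMT2, MTHFD2, SLC1A5, SLC6A9, WARS1 and PCK2 each overlap a neighbouring gene in the annotation, so reads of the shared stretch are uncertain.

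ASNS, the enzyme that makes asparagine and a standard readout of amino acid stress, had 73.7, 80.6 and 83.3 CPM in knockout, against 62.5, 53.4 and 48.4 CPM in wild type. Every knockout library was above every wild-type library, with a log2 change of 0.53 ± 0.0997 (edgeR adjusted p = 0.0149). CBS, which starts the conversion of homocysteine to cysteine, had 89.7, 85.2 and 65.3 CPM in knockout, against 46.0, 49.2 and 52.8 CPM in wild type (edgeR log2 change 0.70 ± 0.121, adjusted p = 0.0104). The row CBSL is a near-identical copy, so the split of reads between the copies is uncertain, and the CPM of CBS and CBSL together were 176, 183 and 185 in knockout, against 124, 119 and 113 in wild type. The sum also separated the groups. CTH, the next enzyme of that pathway, ranged from 11.1 to 16.2 CPM in knockout and from 10.7 to 11.8 CPM in wild type, and PCK2, the mitochondrial PEP carboxykinase, from 14.6 to 18.3 CPM in knockout and from 13.1 to 15.9 CPM in wild type. Both overlapped between the groups and did not pass.

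Of the 7 amino acid transporters, 4 rose in the knockout. SLC7A11, the cystine and glutamate exchanger that feeds glutathione synthesis, had 838, 810 and 809 CPM in knockout, against 705, 724 and 637 CPM in wild type. SLC3A2, the heavy chain that carries SLC7A11 and SLC7A5 to the cell surface, had 565, 578 and 586 CPM in knockout, against 512, 437 and 386 CPM in wild type. Knockout libraries were above all wild-type libraries for both chains, with edgeR log2 changes of 0.25 ± 0.0571 (adjusted p = 0.0306) for SLC7A11 and 0.37 ± 0.0933 (adjusted p = 0.0449) for SLC3A2. SLC1A5, a glutamine and neutral amino acid transporter, had 331, 355 and 356 CPM in knockout, against 302, 278 and 254 CPM in wild type (edgeR log2 change 0.32 ± 0.0694, adjusted p = 0.0265). SLC6A9, the glycine transporter GlyT1, had 14.5, 14.9 and 15.4 CPM in knockout, against 9.55, 7.81 and 8.20 CPM in wild type (edgeR log2 change 0.80 ± 0.143, adjusted p = 0.0113). Neither gene's groups overlapped. SLC7A5, the large neutral amino acid transporter LAT1 and the light chain paired with SLC3A2, had 405 to 493 CPM in knockout and 355 to 442 CPM in wild type, and the groups overlapped. SLC7A1, a transporter of cationic amino acids, and SLC1A4, a transporter of neutral amino acids, were at 0.850 to 2.01 CPM and 3.38 to 6.65 CPM in knockout and at 1.53 to 1.95 CPM and 5.22 to 7.53 CPM in wild type, and did not pass.

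Of the tRNA ligases among the members, which join an amino acid to its tRNA, only AARS1 passed. AARS1, the alanine ligase (chr16:70252295-70289543, named AARS in GENCODE 29), had 420, 452 and 439 CPM in knockout, against 295, 271 and 266 CPM in wild type. The gap between the groups was several times the spread within them, with a log2 change of 0.66 ± 0.0568 (edgeR adjusted p = 0.000423). The tryptophan ligase WARS1 had 171 to 206 CPM in knockout and 151 to 174 CPM in wild type. The serine ligase SARS1 (23.8 to 29.2 CPM in knockout, 18.0 to 23.8 CPM in wild type), the glycine ligase GARS1 (8.27 to 12.8 and 9.17 to 14.0 CPM), the glutamate and proline ligase EPRS1 (4.82 to 7.82 and 3.44 to 5.96 CPM) and the tRNA export factor XPOT (31.9 to 47.0 and 27.9 to 43.5 CPM) did not pass either. STC2, a secreted glycoprotein, had 131, 146 and 150 CPM in knockout, against 102, 110 and 119 CPM in wild type, without overlap (edgeR log2 change 0.37 ± 0.0758, adjusted p = 0.0204).

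Several of these calls depended on single L3.6 libraries. Without knockout replicate 2, or without knockout replicate 3, the same 7 members (ASNS, MTHFD2, SLC1A5, SLC3A2, SLC6A9, SLC7A11 and STC2) missed the threshold, with edgeR adjusted p-values of 0.0507 to 0.135 and of 0.0567 to 0.148, and without wild-type replicate 2 all of these but SLC6A9 did (0.0574 to 0.144). SLC3A2 and SLC7A11 also did without knockout replicate 1 (0.0942 and 0.0956), and SLC1A5 and SLC3A2 without wild-type replicate 3 (0.0578 and 0.0747), whereas without wild-type replicate 1 14 members rose and 2 fell and 17.2% of all genes were called (10.6% higher and 6.61% lower). AARS1, SHMT2, PHGDH, CBS and GDF15 passed whichever library was left out. The 7 others kept positive log2 changes throughout, from 0.198 (SLC7A11) to 0.907 (SLC6A9). Calls over all genes fell too, from 1335 to between 574 and 807, except without wild-type replicate 1. SLC3A2 also missed the threshold with RLE factors (edgeR adjusted p = 0.0527), with upper-quartile factors (0.0509) and without the row AC010970.1 (0.0574). In 1 fit of the 4 human groups 3 members passed, against 204 of all 17583 genes.

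The remaining members of L3.6 had low counts or did not pass. CHAC1, a glutathione-degrading enzyme, had no counts in the 3 knockout libraries and 0, 3 and 0 counts in wild type, ALDH1L2, a mitochondrial folate enzyme, had at most 1.73 CPM, and PPP1R15A, the stress-induced phosphatase subunit GADD34, at most 1.08 CPM, and these 3 were not kept for testing. ADM2, a secreted peptide of the adrenomedullin family, had 5.49, 6.33 and 5.42 CPM in knockout, against 3.50, 0 and 0 CPM in wild type, which did not overlap but did not pass (edgeR adjusted p = 0.271). ATF3, an early stress factor, ranged from 0.619 to 2.09 CPM in knockout and from 1.35 to 2.17 CPM in wild type. CEBPG, a C/EBP partner of ATF4, ranged from 1.00 to 1.65 CPM in knockout and from 1.53 to 7.59 CPM in wild type, DDIT4, an inhibitor of mTORC1, from 4.89 to 5.73 CPM in knockout and from 5.86 to 7.19 CPM in wild type, and VLDLR, a lipoprotein receptor, from 13.6 to 17.5 CPM in knockout and from 9.87 to 14.6 CPM in wild type. None of these 4 passed.

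**Figure D2:**
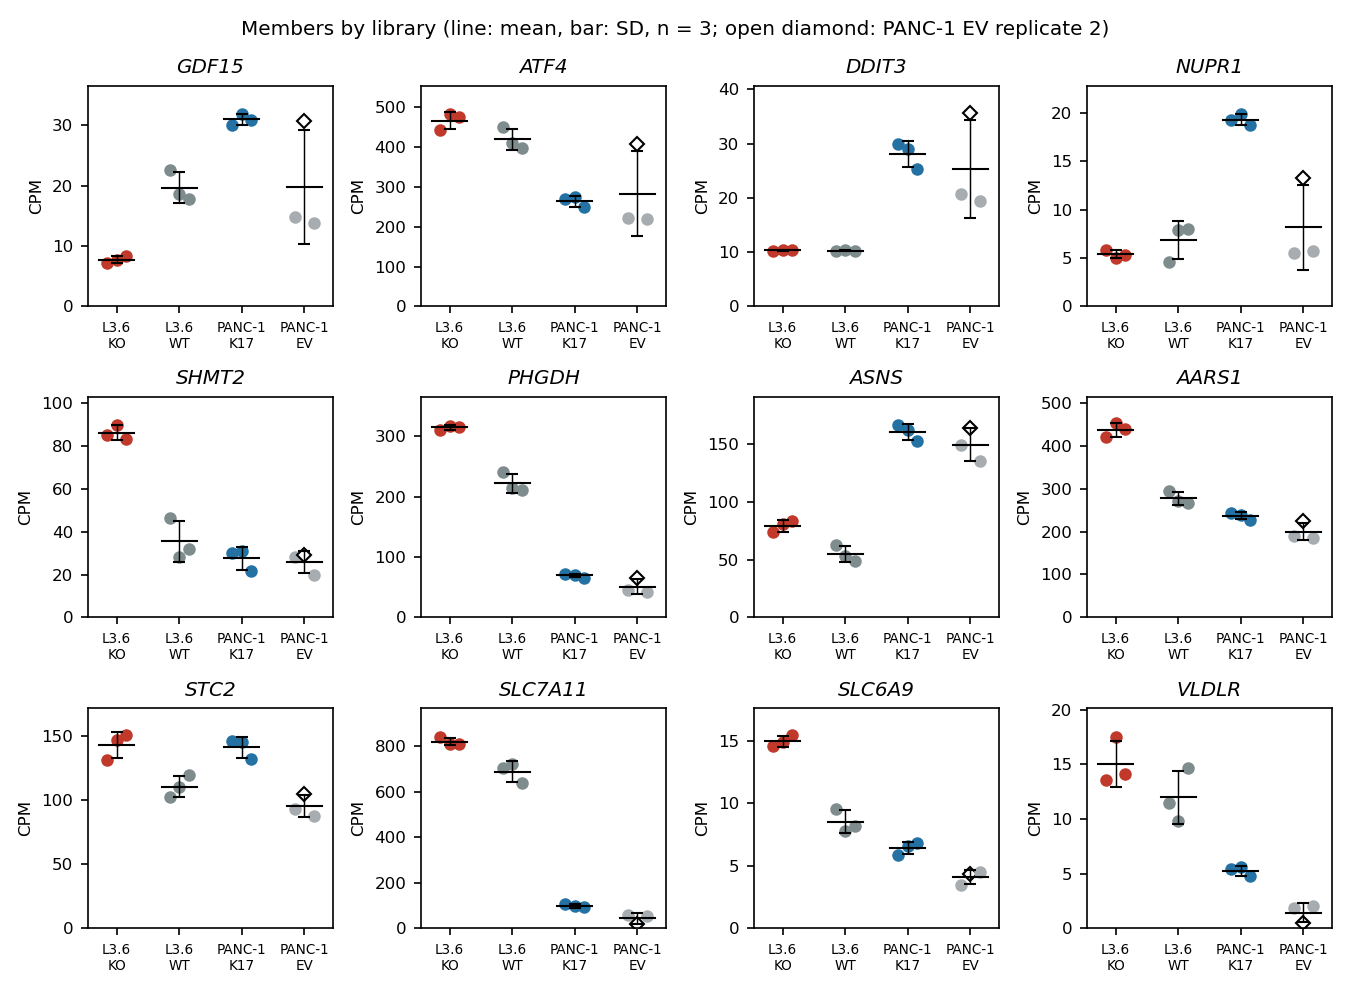
CPM of selected members in the 4 groups, with 1 point per library, a line at each group mean and a bar of 1 SD (n = 3), where the open diamond is empty vector replicate 2. GDF15 lies lowest in the knockout and high in all 3 K17 libraries, and in the panels of GDF15, ATF4, DDIT3 and NUPR1 the diamond lies far above the other 2 empty vector points.

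In PANC-1, no member passed with all 6 libraries. The edgeR test called 0 of 35 members and 0.644% of all 16295 genes (0.583% as higher and 0.0614% as lower with K17). At an unadjusted p under 0.05 in that test were 6 members, against 1634 of all genes. DESeq2 called 2 members and 595 of all genes, limma-voom 0 and 141, and limma-voom with a weight per library 14 and 3030. The median log2 change of the members was 0.20, against 0.01 over all genes. Empty vector replicate 2 lay outside the range of the other 5 libraries for 24 of the 35 members tested (68.6%, against 76.5% of all genes tested), above them for 12 and below them for 12. Without that library the test rests on 3 K17 and 2 empty vector libraries. It then called 13 of 35 members, all higher with K17, against 20.7% of 16640 genes (11.4% higher and 9.25% lower). At an unadjusted p under 0.05 were 20 members, against 5325 of all genes. The median log2 change was 0.28 for the members, against 0.01 over all genes. With upper-quartile scaling this fit gave 1549 higher and 2193 lower genes, against 1902 and 1540 with TMM, and 13 members higher and 1 lower.

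**Figure D3:**
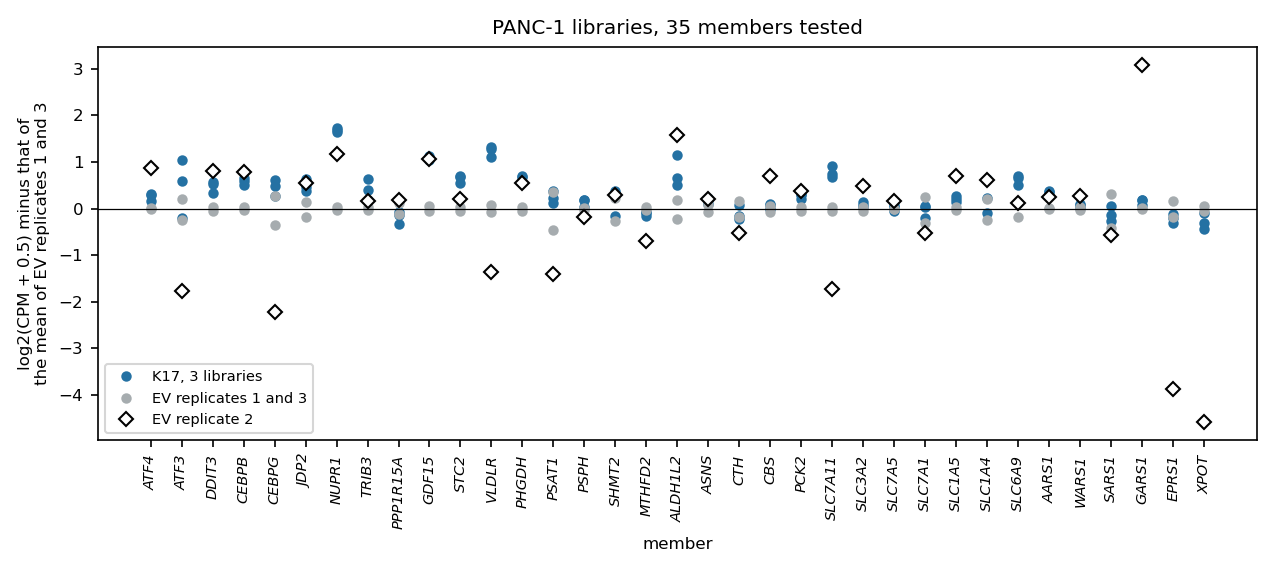
Each of the 35 members tested in PANC-1 (horizontal axis) in each of the 6 libraries, as log2(CPM + 0.5) minus the mean of empty vector replicates 1 and 3 (vertical axis), with K17 libraries in blue, those 2 replicates in grey and empty vector replicate 2 as open diamonds. In replicate 2 the CPM of GARS1 was 8.80 times the mean of the other 2 empty vector replicates, and those of EPRS1 and XPOT were 0.0551 and 0.0307 times it.

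Among the members, GARS1, EPRS1 and XPOT stood furthest from the other empty vector libraries there. GARS1 had 14.1, 14.0 and 13.1 CPM with K17, against 12.2, 108 and 12.4 CPM with the empty vector. EPRS1 had 27.7, 30.0 and 32.1 CPM with K17, against 30.3, 1.91 and 38.9 CPM with the empty vector. XPOT had 40.5, 31.8 and 35 CPM with K17, against 41.7, 1.34 and 45.3 CPM with the empty vector. In each case the outlying value was that of empty vector replicate 2 and the other 5 libraries lay close together. The direction was not shared by the tRNA ligases: replicate 2 was high for GARS1 and low for EPRS1 within the same library. CANX, an ER chaperone outside the member list, had 0.98 CPM in it and 284 to 336 CPM in the other PANC-1 libraries. What set these values apart was not tested.

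GDF15 had 30.1, 32.0 and 30.9 CPM with K17, against 14.9, 30.7 and 13.8 CPM with the empty vector. The K17 libraries agreed closely, and empty vector replicate 2 lay among them, well above the other libraries of its own group. With all 6 libraries the log2 change was 0.65 ± 0.329 (edgeR adjusted p = 0.594), and without replicate 2 it was 1.11 ± 0.0671 (edgeR adjusted p = 9.42e-05). NUPR1 (chr16:28532708-28539174) had 19.3, 19.9 and 18.7 CPM with K17, against 5.50, 13.2 and 5.76 CPM with the empty vector. K17 libraries were above all 3 empty vector libraries, and NUPR1 had the highest fold change of the members that passed without replicate 2 (edgeR log2 change 1.77 ± 0.0797, adjusted p = 2.52e-05), against 1.24 ± 0.373 with it (edgeR adjusted p = 0.316).

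ATF4, DDIT3, CEBPB and JDP2 were higher with K17 than in empty vector replicates 1 and 3. ATF4 had 270, 274 and 249 CPM with K17, against 222, 407 and 221 CPM with the empty vector. DDIT3 had 29.9, 29 and 25.4 CPM with K17, against 20.7, 35.7 and 19.4 CPM with the empty vector. For both genes, empty vector replicate 2 was the highest of the 6 libraries and the other 2 the lowest. Without it, ATF4 rose by a log2 change of 0.25 ± 0.0437 (edgeR adjusted p = 0.00719) and DDIT3 by 0.48 ± 0.0847 (edgeR adjusted p = 0.00785), and with it ATF4 had a log2 change of -0.10 ± 0.273 (edgeR adjusted p = 0.906). CEBPB had 25.5, 26.9 and 24.0 CPM with K17, against 17.2, 29.3 and 16.5 CPM with the empty vector (edgeR log2 change 0.59 ± 0.0718 without replicate 2, adjusted p = 0.0016). JDP2 had 20.7, 18.2 and 17.3 CPM with K17, against 11.7, 19.6 and 14.7 CPM with the empty vector (edgeR log2 change 0.51 ± 0.122 without replicate 2, adjusted p = 0.0273). Here replicate 2 sat above the K17 libraries for CEBPB and among them for JDP2. TRIB3 had 0.308, 0.452 and 0.194 CPM with K17, against 0.0994, 0.191 and 0.125 CPM with the empty vector, and did not pass (edgeR adjusted p = 0.0897 without replicate 2).

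Among the enzymes, PHGDH had 71.4, 70.9 and 65.7 CPM with K17, against 45.3, 65.0 and 42.5 CPM with the empty vector. All K17 libraries were above all empty vector libraries, and without replicate 2 the log2 change was 0.65 ± 0.0535 (edgeR adjusted p = 0.000312). The next mitochondrial enzymes did not follow it. SHMT2 had 30.2, 31.1 and 21.5 CPM with K17, against 28.1, 29.2 and 19.7 CPM with the empty vector. MTHFD2 had 340, 338 and 321 CPM with K17, against 367, 220 and 350 CPM with the empty vector. SHMT2 overlapped between the groups and MTHFD2 lay slightly lower with K17 than in replicates 1 and 3, and neither passed (edgeR adjusted p = 0.619 for SHMT2 and 0.085 for MTHFD2 without replicate 2). ASNS had 166, 162 and 153 CPM with K17, against 150, 164 and 135 CPM with the empty vector, and did not pass (edgeR log2 change 0.17 ± 0.0569 without replicate 2, adjusted p = 0.0894). CBS had 69.1, 70.4 and 65.2 CPM with K17, against 68.6, 107 and 62.8 CPM with the empty vector, where only replicate 2 stood apart.

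The transporters SLC7A11, SLC6A9 and SLC1A5 rose without empty vector replicate 2. SLC7A11 had 109, 96.4 and 92.1 CPM with K17, against 59.1, 17.1 and 55.9 CPM with the empty vector. Every K17 library exceeded every empty vector library, of which replicate 2 was the lowest, so that its log2 change was 0.78 ± 0.0754 without that library (edgeR adjusted p = 0.000997) and 1.17 ± 0.458 with it (edgeR adjusted p = 0.473). SLC6A9 had 5.87, 6.59 and 6.80 CPM with K17, against 3.48, 4.35 and 4.47 CPM with the empty vector (edgeR log2 change 0.69 ± 0.147 without replicate 2, adjusted p = 0.017). SLC1A5 had 114, 119 and 110 CPM with K17, against 101, 161 and 97.2 CPM with the empty vector (edgeR log2 change 0.21 ± 0.0428 without replicate 2, adjusted p = 0.0159). SLC6A9 groups did not overlap, while SLC1A5 was highest in replicate 2. SLC3A2, with 132, 138 and 128 CPM with K17 against 128, 172 and 120 CPM with the empty vector, and SLC7A5, with 264 to 289 CPM and 272 to 307 CPM, did not pass.

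AARS1 had 243, 240 and 228 CPM with K17, against 190, 224 and 186 CPM with the empty vector. STC2 had 146, 145 and 132 CPM with K17, against 92.8, 105 and 87.7 CPM with the empty vector. Neither gene's groups overlapped even with replicate 2 included, and without it the edgeR log2 changes were 0.33 ± 0.0349 (adjusted p = 0.000903) for AARS1 and 0.64 ± 0.0537 (adjusted p = 0.000387) for STC2. VLDLR had 5.40, 5.62 and 4.78 CPM with K17, against 1.82, 0.455 and 2.05 CPM with the empty vector, again without overlap (edgeR log2 change 1.44 ± 0.142 without replicate 2, adjusted p = 0.00065). The other ligases did not pass: WARS1 had 118 to 126 CPM with K17 and 115 to 143 CPM with the empty vector, and SARS1 7.46 to 9.50 CPM with K17 and 5.99 to 11.5 CPM with the empty vector.

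Of the 13 calls without empty vector replicate 2, those of AARS1, CEBPB, GDF15, NUPR1, PHGDH, SLC7A11, STC2 and VLDLR held when a further library was left out. Leaving out 1 more library ended those of ATF4 (empty vector replicate 1, edgeR adjusted p = 0.0502, or 3, 0.0626), DDIT3 (empty vector replicate 3, 0.0639), SLC1A5 (empty vector replicate 3, 0.113), SLC6A9 (empty vector replicate 1, 0.0986, or K17 replicate 3, 0.0547) and JDP2 (empty vector replicate 1, 0.144, or K17 replicates 1, 0.0662, or 2, 0.0613). Where an empty vector library was removed, a single one was left, and it was assumed to vary like the K17 libraries. Without 1 of the K17 libraries, 2665 to 2837 of all genes were called, against 3442 before.

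The remaining members had low counts in PANC-1 or did not pass. CHAC1 had 7, 9 and 0 counts with K17 and 24, 0 and 0 with the empty vector, ADM2 was at 0 in 5 of the 6 libraries, and DDIT4 was at 0.129 CPM or below, so these 3 were not kept for testing. ATF3 had 1.00 to 3.02 CPM with K17 and 0 to 1.49 CPM with the empty vector. CEBPG had 7.19 to 9.32 CPM with K17 and 0.866 to 7.25 CPM with the empty vector, where replicate 2 was the lowest. PSAT1, PSPH, PCK2, CTH, ALDH1L2, PPP1R15A, SLC7A1 and SLC1A4 did not pass with or without that library. Of these, PSPH was the most abundant, with 59.5 to 65.8 CPM with K17 and 50.6 to 58.5 CPM with the empty vector. PCK2 had 6.33 to 6.94 CPM with K17 and 5.27 to 7.25 CPM with the empty vector, and SLC1A4 had 3.46 to 6.02 CPM with K17 and 3.07 to 5.90 CPM with the empty vector. PSAT1 had 3.52 to 4.32 CPM with K17 and 0.895 to 4.22 CPM with the empty vector, lowest in replicate 2, and CTH had 2.48 to 3.20 CPM with K17 and 1.92 to 3.40 CPM with the empty vector. ALDH1L2, PPP1R15A and SLC7A1 stayed at or below 2.14 CPM in every PANC-1 library.

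The direction of each member relative to K17 was compared between the lines. Of the 38 members, 18 were called in L3.6 or in PANC-1 without empty vector replicate 2, 7 of them in both, 5 in L3.6 alone (ASNS, CBS, MTHFD2, SHMT2 and SLC3A2) and 6 in PANC-1 alone (ATF4, CEBPB, DDIT3, JDP2, NUPR1 and VLDLR). All 18 are among the 33 members tested in both lines, of which the 7, 5 and 6 make 21.2%, 15.2% and 18.2%. Of all 13322 genes tested in both, 3.76% were called in both, 5.76% in L3.6 alone and 20.2% in PANC-1 alone. GDF15 was lower in the knockout and higher with added K17. The other 6, AARS1, PHGDH, SLC1A5, SLC6A9, SLC7A11 and STC2, were higher in the knockout and also higher with added K17. Over all genes tested in both lines, 0.691% were called with the signs of GDF15 and 1.62% as higher in both. SLC6A9, for example, had a log2 change of 0.80 in knockout over wild type and of 0.69 in K17 over empty vector.

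**Figure D4:**
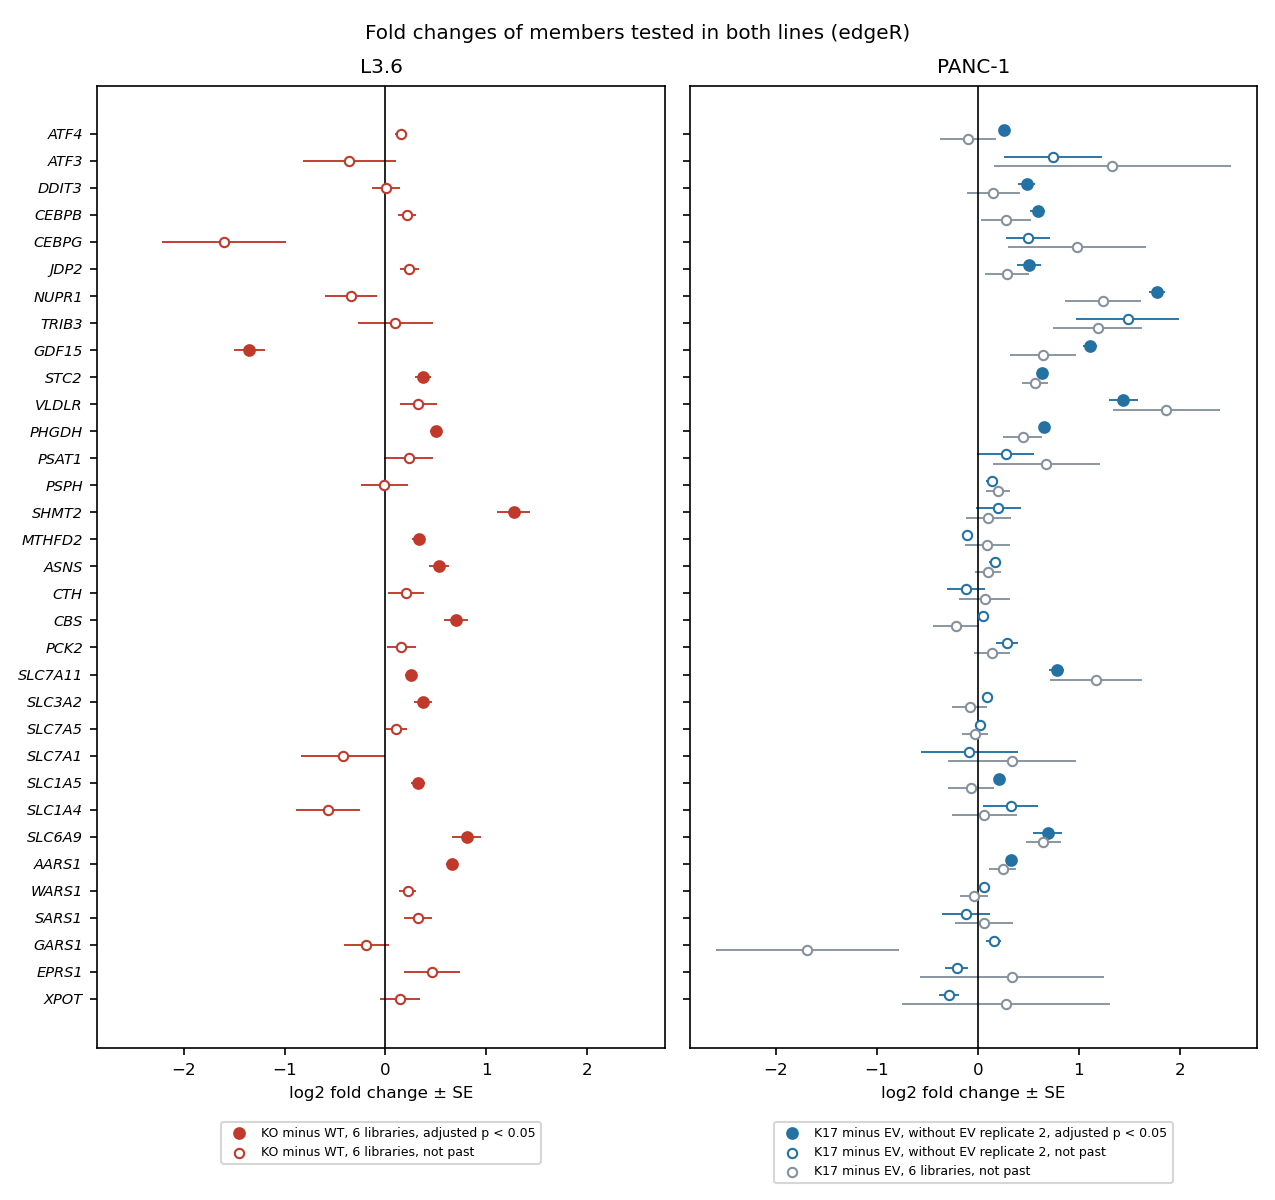
Log2 fold change (horizontal axis, bar 1 SE) of each member tested in both lines, knockout over wild type in L3.6 (red) and K17 over empty vector in PANC-1 without empty vector replicate 2 (blue) and with all 6 libraries (grey), filled where the edgeR adjusted p was under 0.05. GDF15 is at -1.35 in L3.6 and 1.11 in PANC-1, while AARS1, PHGDH, SLC1A5, SLC6A9, SLC7A11 and STC2 lie above 0 in both.

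The difference between the lines was tested as an interaction in 1 edgeR fit, as the log2 change of K17 over empty vector in PANC-1 minus that of wild type over knockout in L3.6, so a gene that follows K17 equally in both lines is at 0. With all 12 libraries 3 of 37 members passed, all above 0, against 1.54% of 17583 genes (1.25% above and 0.284% below 0). These were SLC6A9 (1.42 ± 0.238, edgeR adjusted p = 0.0137), STC2 (0.90 ± 0.178, edgeR adjusted p = 0.0323) and AARS1 (0.86 ± 0.171, edgeR adjusted p = 0.0323). Without knockout replicate 2 or 3, or wild-type replicate 2 or 3, AARS1 and STC2 no longer passed (edgeR adjusted p = 0.0549 to 0.0975), and AARS1 also missed the threshold without K17 replicate 1, 2 or 3 (0.0631, 0.061 and 0.0501). Over all genes, 138 to 171 were called in these fits, against 270 with all 12 libraries.

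Without empty vector replicate 2, 15 of 37 members passed, all above 0, against 11.5% of 15758 genes (8.72% above and 2.82% below 0). That split over all genes was 1374 above and 445 below 0 with TMM, 1204 and 1301 with upper-quartile factors and 1436 and 784 without the row AC010970.1. The median of all genes moved from 0.05 to -0.11 with upper-quartile factors, under which the members had a median of 0.33, against 0.48 with TMM, and 15 passed above 0. The members were the 6 that were higher in both contrasts, ATF4, CEBPB, DDIT3, JDP2, NUPR1 and VLDLR, and 3 that had passed in L3.6 alone (ASNS, CBS and SHMT2). Values ran from 0.48 for ATF4 (edgeR adjusted p = 0.0283) to 1.85 for VLDLR (edgeR adjusted p = 0.000887). GDF15 was at -0.17 ± 0.190 (edgeR adjusted p = 0.611) without replicate 2 and at -0.76 ± 0.417 (edgeR adjusted p = 0.437) with it. A further library left out ended the calls of ASNS and SHMT2 (without empty vector replicate 3, edgeR adjusted p = 0.0827 and 0.0818), JDP2 (without empty vector replicate 1, 0.0686) and SLC1A5 (without empty vector replicate 1 or 3, 0.0568 to 0.0882). It also ended those of ATF4 (without empty vector replicate 1 or 3 or K17 replicate 1 or 2, 0.0694 to 0.132) and DDIT3 (with upper-quartile factors, 0.0624, and without these, any knockout replicate or wild-type replicate 2 or 3, 0.0548 to 0.168).

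Other genes of the same and neighbouring pathways were counted in the same fits, in which 9.61% of all genes were called in L3.6 and 20.7% in PANC-1 without empty vector replicate 2. The lists are small, and the counts of several lie near these shares. Of 10 tested genes upstream of ATF4 (the 4 eIF2 kinases EIF2AK1 to EIF2AK4, their regulators DNAJC3, IMPACT, DELE1 and OMA1, and the translation factor genes EIF2S1 and EIF2B5), 0 rose and 1 fell in L3.6 knockout, and likewise with K17 in PANC-1 without empty vector replicate 2. It was in both cases EIF2S1, the alpha subunit that the kinases phosphorylate, with edgeR log2 changes of -0.37 (adjusted p = 0.0157) in knockout and -0.28 (adjusted p = 0.00116) with K17. Of 20 tested further ATF4 targets, 5 rose and 1 fell in the knockout, with a median log2 change of 0.33, and 7 rose and 2 fell with K17, with a median of 0.25. The glutamine and neutral amino acid transporter SLC38A1 rose in both contrasts, by 0.32 in knockout (edgeR adjusted p = 0.00397) and by 0.35 with K17 (edgeR adjusted p = 0.000207). SLC38A2 (0.61, edgeR adjusted p = 0.0157) and the mitochondrial folate enzyme MTHFD1L (0.42, edgeR adjusted p = 0.00641) also rose in the knockout. MTHFD1L was lower with K17 (-0.14, edgeR adjusted p = 0.0385), a call that ended without empty vector replicate 1 or 3 or K17 replicate 1 or 3 (0.0593 to 0.194). The angiogenic factor VEGFA had the signs of GDF15, at -0.39 in knockout (edgeR adjusted p = 0.00507) and 0.35 with K17 (edgeR adjusted p = 0.000909). The autophagy receptor SQSTM1 (0.81, edgeR adjusted p = 1.02e-05) and KLHL24 (1.58, edgeR adjusted p = 0.00429) rose with K17.

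Of 14 tRNA ligases outside the member list, 2 rose in the knockout, TARS1 (edgeR log2 change 0.31, adjusted p = 0.0115) and YARS1 (0.28, adjusted p = 0.0327), with a median of 0.27. With K17 in PANC-1 1 rose and 4 fell, with a median of -0.03. Of these, MARS1, which overlaps DDIT3, rose by 0.17 (edgeR adjusted p = 0.027), and KARS1, LARS1 and TARS1 fell by 0.16, 0.15 and 0.11 on the log2 scale. Chaperones and other ER genes of the XBP1 and ATF6 arms of the unfolded protein response gave 1 of 14 higher in knockout and 2 of 15 higher with K17. HERPUD1, an ER degradation factor, was among them both times (edgeR log2 changes 0.40, adjusted p = 0.0179, and 0.51, adjusted p = 0.00163), and XBP1 the other with K17 (0.29). Among other targets of p53, of which GDF15 is also a known target, 1 of 14 rose in knockout. This was the cell cycle inhibitor CDKN1A (edgeR log2 change 0.78, adjusted p = 0.0435). A part of p53 in the change of GDF15 was not tested. With K17, 3 of 15 rose and 1 fell, with FAS at 0.61, DDB2 at 0.27, TP53INP1 at 0.80 and SESN1 at -0.31. Of the antioxidant targets of NRF2, which shares SLC7A11 with ATF4, 0 of 7 passed in knockout, where NQO1 and TXNRD1 were the most abundant, and TXNRD1 fell with K17 (edgeR log2 change -0.61, adjusted p = 5.81e-05). None of these lists had a gene that passed in PANC-1 with all 6 libraries.

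Several of these single-gene calls ended when particular libraries were left out, in fits where calls over all genes also fell. In L3.6, CDKN1A, YARS1, EIF2S1, HERPUD1, SLC38A2 and TARS1 missed the threshold without knockout replicate 2 (edgeR adjusted p up to 0.131) and without knockout replicate 3 (up to 0.163), all but TARS1 without wild-type replicate 2 (up to 0.130), CDKN1A, EIF2S1 and YARS1 without knockout replicate 1 (0.0549 to 0.0775), and CDKN1A and YARS1 without wild-type replicate 3. Some PANC-1 calls made without empty vector replicate 2 also rested on particular libraries. Those of MARS1, TARS1 and TP53INP1 ended without K17 replicate 1 (edgeR adjusted p = 0.0556 to 0.113). Without K17 replicate 2, LARS1, MARS1 and TARS1 missed the threshold (0.0527 to 0.0897). Without K17 replicate 3, KARS1, LARS1, SESN1 and TARS1 did (0.0508 to 0.115). The calls of KARS1, LARS1, MARS1, TARS1, SESN1 and TP53INP1 also ended without empty vector replicate 1. Without empty vector replicate 3, those of LARS1, MARS1, TARS1, SESN1, TP53INP1 and XBP1 ended. Either of these omissions left a single empty vector library.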

How the data were processed

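Counts per gene were used as the authors deposited them, as whole numbers with no normalization. Per the submitters' processing notes, kallisto 0.46.2, STAR 2.7.3a and bcl2fastq 1.8.4 were used, and GRCh38 is among the builds named. Not given in the sources used here are the tool that counted, the annotation, the strandedness and the handling of multi-mapping reads. GENCODE 29 gave names and coordinates. Promoter sequences are RefSeq's.

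Each line was fitted with edgeR 4.0.16 in R 4.3.3 (filterByExpr, TMM factors, robust glmQLFit, glmQLFTest), and p-values were adjusted by Benjamini-Hochberg over every gene kept, at a threshold of 0.05. The interaction used 12 or 11 human libraries. The SE of an edgeR log2 change is its size divided by the square root of the F statistic of the test. It therefore restates the test and is not a separate measure of spread. The scripts were tested on simulated data. CPM were computed from the counts with TMM-scaled library sizes per line.

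The members, the 11 other lists, the tests and the treatment of empty vector replicate 2 were chosen with earlier results of these data known. Genes are given per library where they passed in a line, and for ATF4, GDF15, DDIT3, ASNS, TRIB3 and CHAC1; of other lists up to 4 genes with the lowest adjusted p. Alternatives were upper-quartile or RLE factors, no filter, a filter of 1 CPM in 2 libraries, DESeq2 1.42.0, limma-voom (limma 3.58.1) with and without quality weights per library, 1 fit of the 4 groups, the replicate number as a block, no AC010970.1 and each library left out. The mouse libraries of the series were not used, and 1 result of the NRF2 list is not reported here.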

Additional observations from a re-analysis of the deposited data

Results flagged for a closer look

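For 18 values the change with K17 differed between the lines in the edgeR interaction test, as K17 over empty vector in PANC-1 minus wild type over knockout in L3.6 on the log2 scale. With 12 libraries these were AARS1 (0.86), SLC6A9 (1.42) and STC2 (0.90). Without empty vector replicate 2 they were, among enzymes and the ligase, AARS1 (1.06), ASNS (0.77), CBS (0.83), PHGDH (1.23) and SHMT2 (1.54). Among transporters they were SLC1A5 (0.60), SLC6A9 (1.56) and SLC7A11 (1.11). Among regulators they were ATF4 (0.48), CEBPB (0.87), DDIT3 (0.56), JDP2 (0.81) and NUPR1 (1.52), and beside these STC2 (1.09) and VLDLR (1.85). Adjusted p-values ran up to 0.0337, for DDIT3. All 18 lie above 0, and GDF15 is not among them. The lines differ in cell type, in depth and in how K17 was changed, and these cannot be told apart from the line. Single libraries on which these differences rest are given with the results above.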

How the results depend on the processing

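With all libraries the 12 member calls in L3.6 (1335 over all genes) became 3 in 1 fit of the 4 human groups (204). They became 5 to 16 with a library left out (574 to 2493). In PANC-1 the count of 0 (105 over all genes) became 2 with DESeq2 (595) and 14 with quality weights (3030). It became 1 in the joint fit (363) and 0 to 13 with a library left out (0 to 3442), the highest without empty vector replicate 2. Without that library the 13 calls ranged from 11 to 14 with a further library left out, and DESeq2 gave 15 higher and 2 lower. The 3 interaction calls (270 over all genes) became 6 with DESeq2 (783) and 15 with quality weights (2777). They became 1 to 15 with a library left out (138 to 1819). The 15 interaction calls without empty vector replicate 2 became 10 to 18 with a further library left out and 20 with quality weights. Deviations of same-numbered libraries from their group means had correlations of -0.121 to 0.0863. With so few libraries per group, these values cannot decide whether the numbers pair them. The replicate block gave 8 calls in L3.6, 0 in PANC-1, 14 without empty vector replicate 2, and 0 and 8 in the interactions. Over all genes it gave 665, 0, 2252, 70 and 550 in the same order. Without empty vector replicate 2, DESeq2 gave 1999 genes higher and 1872 lower in PANC-1. In the interaction without that library, quality weights gave 3669 genes, against 1819 without weights. Calls over all genes ranged from 204 to 2493 in L3.6, 0 to 3442 in PANC-1, 1239 to 3871 without empty vector replicate 2, 70 to 2777 in the interaction and 550 to 3669 in that without the library.

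In these fits, signs turned for genes that had not passed. In L3.6 DDIT3 was at -0.045 with upper-quartile factors, at -0.00691 without AC010970.1 and at -0.0028 to 0.021 with a library left out, and TRIB3 at -0.12 to 0.41. In PANC-1 with 6 libraries ATF4 was at 0.25 with quality weights and at -0.25 to 0.25 with a library left out, SLC1A5 at 0.20 and -0.19 to 0.21, and DDIT3 at -0.0023 to 0.48. The cause was not tested. Another scaling ended single calls of SLC3A2 in L3.6 and of DDIT3 between the lines, with values given above. Counts of 3 or fewer set no fold, and low totals in L3.6 limit TRIB3, ATF3, CHAC1 and PPP1R15A.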
